A study of Mus musculus with 12 samples.

Results

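Fatty acid synthesis and desaturation was followed through 10 genes, Acly, Acaca, Acacb, Fasn, Scd1, Scd2, Elovl5, Elovl6, Fads1 and Fads2, chosen by symbol from the 24391 gene symbols counted. All 10 passed the expression filter, as did 15958 genes in all. RNA-seq counts came from palatal shelves, the paired outgrowths that become the roof of the mouth, of C57BL/6 mice at E13.5. The 4 groups were anterior palate of controls (con_AP) and of the tamoxifen group (TAM_AP), and posterior palate of controls (con_PP) and of the tamoxifen group (TAM_PP), with 3 libraries each. Tamoxifen binds oestrogen receptors and acts as agonist or antagonist depending on the tissue, and the title of the series links it to cleft palate. The labels name no transgene or Cre allele, and they give neither the dose and day of tamoxifen nor what the controls received. They also do not say whether libraries came from separate animals or litters, so p-values reflect only how far the samples at hand differed, which may be technical.

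De novo fatty acid synthesis begins with citrate that leaves the mitochondrion. ATP citrate lyase (Acly) splits it into acetyl-CoA, acetyl-CoA carboxylases (Acaca in the cytosol, Acacb at the mitochondrial surface) make malonyl-CoA, and fatty acid synthase (Fasn) builds palmitate from both. Elovl6 lengthens palmitate, the stearoyl-CoA desaturases Scd1 and Scd2 place the first double bond, and Fads1, Fads2 and Elovl5 desaturate and lengthen dietary polyunsaturated fatty acids. The SREBP transcription factors, held back by the Insig proteins when sterols are plentiful, are known to drive many of these genes together with those of cholesterol synthesis.

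Under tamoxifen 8 of the 10 genes rose in the anterior palate, by 1.17-fold (Fads1) to 1.88-fold (Scd1), where 25.6% of all genes tested were called higher and 24% lower. In the posterior palate 5 of the 10 rose, by 1.19-fold (Elovl5) to 1.29-fold (Scd1), where 17.3% of all genes were called higher and 11.7% lower. Fasn and Acacb did not pass the test in either part. Once a trend with transcript length and GC content was removed from every library, the pattern changed: Fasn fell in both parts, the rises of Acaca and Elovl6 in the anterior palate were lost, and in the posterior palate the genes called higher were Acly and Fads2.

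The libraries held 39.4 M to 73 M counts, the most in TAM_AP replicate 1 and the next 50.2 M. Even Acacb, the least abundant of the 10 genes, had 376 to 702 counts in each library. The libraries also differed in a way that touches every result below. Across 12688 genes, the deviation of a library from the mean of all 12 followed transcript length, with Spearman's rho of -0.59 to -0.23 in the 6 control libraries and 0.35 to 0.47 in the 6 tamoxifen libraries. With GC content rho was 0.07 to 0.52 in controls and -0.61 to -0.14 under tamoxifen. Longer and more AT-rich transcripts therefore read higher in every tamoxifen library, and treatment and this trend cannot be told apart at the level of the libraries. For the 10 genes each treatment effect is given as counted and with the trend removed per library. Of the log2 difference in the anterior palate the trend amounted to 0.60 for Acaca, 0.53 for Elovl6, 0.32 for Scd1, 0.31 for Scd2, 0.23 for Fasn and Acacb, 0.11 for Elovl5, 0.06 for Acly, -0.08 for Fads1 and -0.22 for Fads2.

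Promoters of 7 of the 10 genes were listed in RefSeq's annotation of the GRCm38.p6 build, which is not the mm9 build named by the submitters. The table had no entry for Scd1, Scd2 and Fads1. The 250 bases before the start site are shown 5′ to 3′ for 4 genes. Acly, Elovl5 and Fads2 rose in the anterior palate both as counted and with the trend removed, and Fasn did not rise. The windows of Acaca, Acacb and Elovl6 are not shown. Acaca and Elovl6 also rose there as counted, and their windows held no match to any motif searched. Capitals mark matches, on either strand, to the CCAAT box (CCAAT, or ATTGG on the other strand), the GC box bound by Sp1 (GGGCGG, or CCGCCC) and the E-box CACGTG.
Acly, chr11:100528001-100528250, minus strand: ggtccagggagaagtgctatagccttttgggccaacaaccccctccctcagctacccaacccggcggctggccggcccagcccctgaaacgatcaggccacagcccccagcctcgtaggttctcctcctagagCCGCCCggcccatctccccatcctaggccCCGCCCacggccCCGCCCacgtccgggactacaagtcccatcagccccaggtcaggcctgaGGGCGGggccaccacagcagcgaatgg
Fasn, chr11:120824548-120824797, minus strand: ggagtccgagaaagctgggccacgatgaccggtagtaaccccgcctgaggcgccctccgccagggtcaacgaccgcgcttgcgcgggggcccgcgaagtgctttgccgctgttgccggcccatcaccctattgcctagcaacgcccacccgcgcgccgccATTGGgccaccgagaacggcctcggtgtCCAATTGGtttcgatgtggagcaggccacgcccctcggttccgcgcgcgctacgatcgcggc
Elovl5, chr9:77917115-77917364, plus strand: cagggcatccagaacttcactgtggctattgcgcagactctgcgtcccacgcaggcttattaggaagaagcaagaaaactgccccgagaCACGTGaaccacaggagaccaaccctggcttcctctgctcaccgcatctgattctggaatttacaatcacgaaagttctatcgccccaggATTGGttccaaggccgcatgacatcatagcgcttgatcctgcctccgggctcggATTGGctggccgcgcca
Fads2, chr19:10101504-10101753, minus strand: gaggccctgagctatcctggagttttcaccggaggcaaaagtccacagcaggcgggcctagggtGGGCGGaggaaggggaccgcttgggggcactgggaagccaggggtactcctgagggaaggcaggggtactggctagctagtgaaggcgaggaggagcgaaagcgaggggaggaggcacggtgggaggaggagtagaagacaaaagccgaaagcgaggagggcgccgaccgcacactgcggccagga
The Acly window held 4 GC boxes and no CCAAT box. The Fasn window, 69.2% G or C with 33 CpG dinucleotides, held 3 CCAAT boxes at -90 to -86, -62 to -58 and -59 to -55 from the start site, the last pair overlapping on opposite strands. Elovl5 held the E-box at -161 to -156 and 2 CCAAT boxes at -71 to -67 and -17 to -13, and Fads2 held 1 GC box at -186 to -181. A CCAAT box was present in 3 of the 7 windows (Acacb, Fasn and Elovl5) and in 33.8% of 32851 promoters of the same length. A GC box was present in 2 of 7 against 32.7%, and CACGTG in 1 of 7 against 6.02%. The E-box CATGTG occurred once, in Acacb (12.3% of all promoters). Exact spellings of the SREBP site were also searched, among them TCACCCCAC (0.496% of all promoters) and CACCCCAC (2.58%), of which the first contains the second. Neither of these was found in the 7 windows, which says nothing of sites elsewhere or with other letters. The Acaca window, with 39.2% G or C and 0 CpG dinucleotides, ends in AG at an exon border. It may therefore lie before an internal start and be no true promoter, but it is counted among the 7.

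All 10 genes were expressed in every library. Levels between genes are compared as CPM (counts scaled by TMM to a common library size) divided by the length of the longest transcript in kilobases. In control anterior palate Scd2 stood highest at 154 ± 2.24 CPM per kb (SD, n = 3). Acly at 69.7 ± 3.44 and Fasn at 63.6 ± 3.53 came next, and their ranges overlapped. Fads1 followed at 49.8 ± 0.25, Fads2 at 32.4 ± 1.63, Elovl5 at 24.4 ± 0.523 and Elovl6 at 16.5 ± 2.72 CPM per kb. Acaca (11.2 ± 0.903), Scd1 (8.27 ± 0.472) and Acacb (1.17 ± 0.0278 CPM per kb) were lowest, and no other neighbours in this order overlapped. The order was the same in control posterior palate, where Scd2 had 164 ± 9.93 and Acacb 1.07 ± 0.0339 CPM per kb and no neighbours overlapped. Under tamoxifen Fads1 and Fasn lay side by side with overlapping ranges in both parts, at 58.5 ± 4.20 and 56.5 ± 6.60 CPM per kb in the anterior palate and 55.5 ± 1.04 and 54.3 ± 8.38 in the posterior palate. Acaca and Scd1 also overlapped in the anterior palate of the tamoxifen group (17.1 ± 0.323 and 15.6 ± 1.51 CPM per kb), and Fads2 and Elovl5 did in its posterior palate (35.2 ± 0.680 and 33.1 ± 2.35). The order depends on the length used. With the longest coding sequence in place of the longest transcript, Elovl6 stood at 123 CPM per kb in control anterior palate, above Acly (93.6) and Fasn (85.1), and Scd1 at 37.5 stood above Acaca (15.1). Scd2 remained the highest with both of these lengths, and with the shortest coding transcript listed Fasn did. Acacb was the lowest with all 3 lengths and in all 4 groups.

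**Figure D1:**
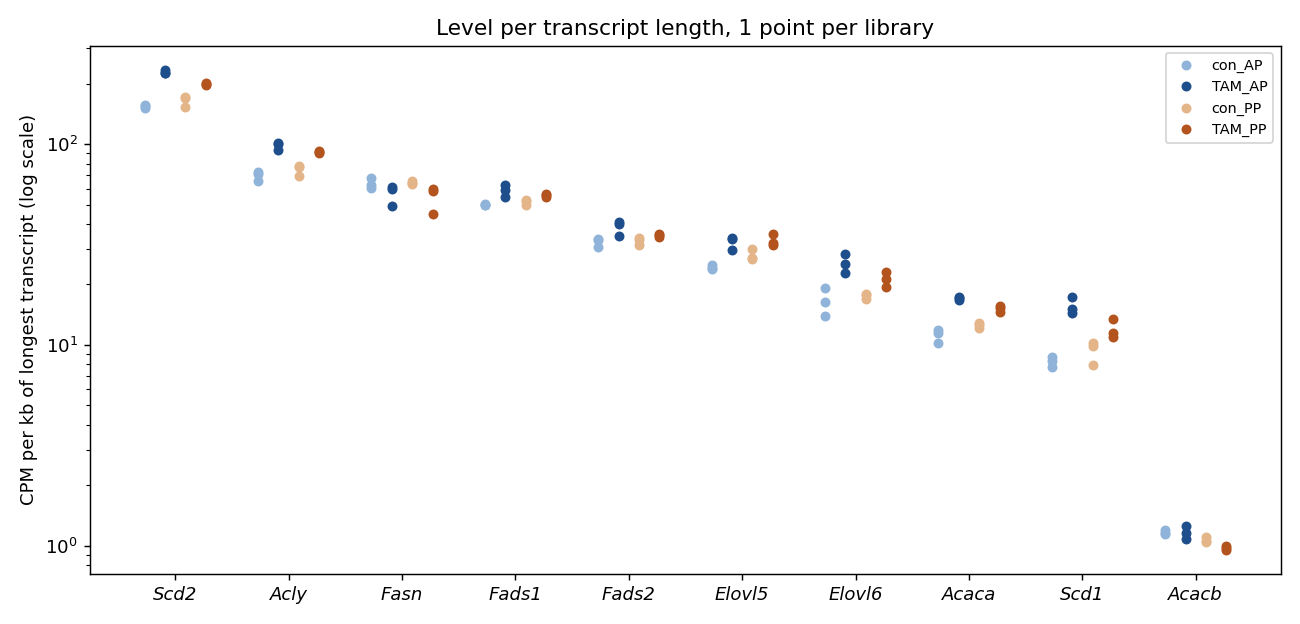
Level of each of the 10 genes per kilobase of longest transcript (CPM per kb, log scale), 1 point per library and 1 colour per group of 3 libraries, ordered by the level in con_AP. Scd2 is highest in every group and Acacb, near 1 CPM per kb, is lowest.

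The first comparison asks what tamoxifen did in the anterior palate. As counted, 8 of the 10 genes were called higher and 0 lower at an adjusted p under 0.05 (edgeR quasi-likelihood test, Benjamini-Hochberg adjustment over 15958 genes), against 25.6% of all genes called higher and 24% lower. For 8 of the 10 genes the tamoxifen and control libraries did not overlap, as for 56.5% of all genes. The median log2 fold change was 0.45 over the 10 genes and -0.02 over all genes tested. With the trend removed 6 were called higher and 1 lower, against 16% and 16.5% of all genes, and the medians were 0.28 and 0.01.

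Acly, the enzyme that supplies acetyl-CoA, had 291, 320.4 and 314 CPM in the control anterior libraries and 448, 415 and 441 CPM under tamoxifen. Every tamoxifen library lay above every control library. The rise was 1.41-fold, a log2 fold change of 0.49 (SE 0.07, adjusted p = 3.7e-05), and little of it followed the trend (0.43, adjusted p = 3.8e-05 with the trend removed).

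Acaca, the cytosolic carboxylase, had 113, 109.5 and 96.6 CPM in controls and 159, 165 and 162 CPM under tamoxifen, again without overlap. It rose 1.53-fold as counted (log2 0.61, SE 0.07, adjusted p = 5.7e-06). The rise did not remain once the trend was removed: the levels were then 136, 135 and 140.3 CPM in controls and 134, 142 and 139 CPM under tamoxifen, with a log2 fold change of 0.01 (adjusted p = 0.84). Acaca has one of the longest transcripts of the 10 genes (9513 bp), and 52.6% of its 50-base windows also occur in the pseudogene Gm5182, so its counts may be split in a way that the files do not show.

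Acacb, whose malonyl-CoA restrains fatty acid entry into mitochondria, had 10, 10.5 and 10.2 CPM in controls and 9.46, 11 and 10.1 CPM under tamoxifen. The groups overlapped and the log2 fold change was -0.01 (SE 0.10, adjusted p = 0.92), or -0.24 with the trend removed (adjusted p = 0.14).

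Fasn, the enzyme that assembles palmitate, had 608, 631 and 678 CPM in control anterior palate and 597, 492 and 614 CPM under tamoxifen. As counted the groups overlapped, since 1 tamoxifen library lay above the lowest control, and the log2 fold change was -0.17 (SE 0.11, adjusted p = 0.19). Its levels with the trend removed were 682, 702 and 823 CPM in controls and 555, 524 and 577 CPM under tamoxifen. On that scale all 3 tamoxifen libraries lay below all controls and Fasn fell by 0.41 on the log2 scale (adjusted p = 0.00039). Fasn has the longest transcript of the 10 genes (10050 bp) and the highest GC content (57.9%).

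Scd1, the desaturase known for its role in liver and fat, had 37.6, 40.1 and 42.1 CPM in controls and 83.5, 72.6 and 69.7 CPM under tamoxifen. This was the largest rise of the 10 genes in the anterior palate, 1.88-fold (log2 0.91, SE 0.11, adjusted p = 6.7e-06), and the groups stood far apart. The log2 fold change was 0.59 with the trend removed (adjusted p = 0.00066). Scd2, the form that predominates in embryonic and neural tissue, had 829, 853 and 842 CPM in controls and 1229.6, 1235 and 1275 CPM under tamoxifen. It rose 1.48-fold without overlap (log2 0.57, SE 0.07, adjusted p = 8.3e-06), and by 0.26 with the trend removed (adjusted p = 0.0022). Of the 50-base windows of Scd1 4.66% occur in another gene, most of them in Scd3. Of those of Scd2 4.01% do, most of them in Scd1. A small share of reads may therefore be assigned to another gene of the family.

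Elovl6, which lengthens palmitate to stearate, had 115, 97.1 and 82.6 CPM in controls and 151, 168 and 136 CPM under tamoxifen. It rose 1.54-fold as counted without overlap (log2 0.63, SE 0.11, adjusted p = 0.00018), but with the trend removed the groups overlapped and the log2 fold change was 0.10 (adjusted p = 0.27). Elovl5, which lengthens polyunsaturated chains, had 66.6, 69.4 and 67.3 CPM in controls and 93.1, 82.4 and 95.0 CPM under tamoxifen. All its tamoxifen libraries stood above the controls, with a rise of 1.33-fold (log2 0.41, SE 0.08, adjusted p = 0.00038) and a log2 fold change of 0.31 with the trend removed (adjusted p = 0.0072).

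Fads1 and Fads2, the delta-5 and delta-6 desaturases, are neighbours on chromosome 19. Fads1 had 173, 172 and 172 CPM in controls and 204, 216 and 187 CPM under tamoxifen, a 1.17-fold rise (log2 0.23, SE 0.07, adjusted p = 0.0081) that was 0.32 with the trend removed (adjusted p = 0.0012). Fads2 had 96.3, 105 and 105 CPM in controls and 129, 109.9 and 126 CPM under tamoxifen, a 1.19-fold rise (log2 0.25, SE 0.07, adjusted p = 0.0089). These were the smallest of the 8 rises as counted, and the groups did not overlap for either gene. The call of Fads2 was lost without TAM_AP replicate 1 (log2 0.21, adjusted p = 0.054), while with the trend removed its log2 fold change was 0.47 (adjusted p = 1.2e-05). Among the 8 genes that rose as counted, Fads1 and Fads2 were those whose log2 fold change became larger when the trend was removed.

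**Figure D2:**
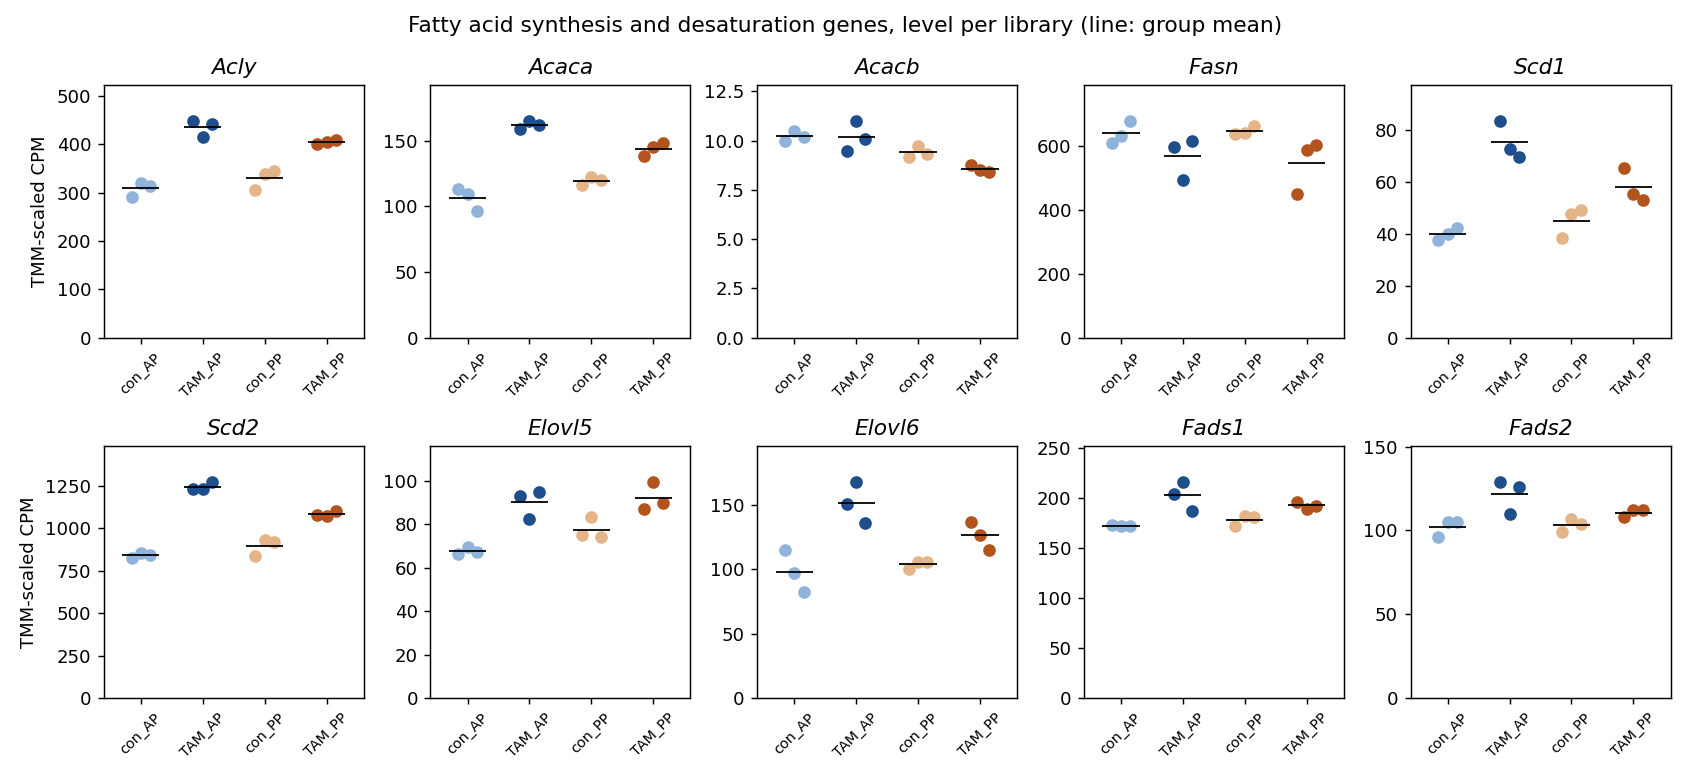
Level of each gene in every library (TMM-scaled CPM, vertical axis from 0, a separate scale for each gene) by group, with a line at the mean of 3 libraries. The tamoxifen libraries lie above the controls in both parts of the palate for 8 genes. Fasn and Acacb lie lower in TAM_PP than in con_PP, and Acacb ranges from 8.39 to 11 CPM over all libraries.

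In the posterior palate 5 of the 10 genes were called higher and 0 lower, against 17.3% of all genes called higher and 11.7% lower, and the median log2 fold change was 0.26 over the 10 genes and 0.02 over all genes tested. All 10 genes had groups that did not overlap, 8 with the tamoxifen libraries higher and 2 (Fasn and Acacb) lower, against 48% of all genes without overlap. With the trend removed 2 genes were called higher, Acly and Fads2, and 1 lower, Fasn, against 7.74% and 10.2% of all genes.

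Acly had 306, 339 and 345 CPM in control posterior palate and 400.4, 405 and 408 CPM under tamoxifen. It rose 1.22-fold (log2 0.29, SE 0.07, adjusted p = 0.0065), and its call held with the trend removed (0.22, adjusted p = 0.014). Acaca had 116, 122 and 120 CPM in controls and 138, 145 and 148 CPM under tamoxifen. It rose 1.21-fold as counted (log2 0.27, SE 0.07, adjusted p = 0.0091), and its difference turned to -0.11 with the trend removed (adjusted p = 0.11). Acacb had 9.17, 9.74 and 9.31 CPM in controls and 8.75, 8.53 and 8.39 CPM under tamoxifen, a log2 difference of -0.14 (SE 0.10, adjusted p = 0.34) that was not called although the groups did not overlap.

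Fasn had 636, 641 and 661 CPM in control posterior palate and 449, 586 and 603 CPM under tamoxifen. All tamoxifen libraries were below the controls, TAM_PP replicate 1 farthest. The log2 fold change of -0.24 (SE 0.11) missed the threshold (adjusted p = 0.093), passed it when only the 6 posterior libraries were fitted (-0.26, adjusted p = 0.049), and was -0.14 without TAM_PP replicate 1 (adjusted p = 0.32). Fasn fell by 0.45 on the log2 scale once the trend was removed (adjusted p = 0.00083).

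Scd1 had 38.3, 47.8 and 49.1 CPM in control posterior palate and 65.4, 55.5 and 52.9 CPM under tamoxifen. Its 1.29-fold rise (log2 0.36, SE 0.11, adjusted p = 0.018) rested on single libraries: without con_PP replicate 1 it was 0.26 (adjusted p = 0.10) and without TAM_PP replicate 1 it was 0.25 (adjusted p = 0.12). Scd2 rose 1.21-fold, from 835, 935 and 920.4 CPM to 1080.1, 1076 and 1101 CPM (log2 0.28, SE 0.07, adjusted p = 0.0073). Neither desaturase was called once the trend was removed, at log2 fold changes of 0.15 (adjusted p = 0.35) for Scd1 and 0.06 (adjusted p = 0.47) for Scd2.

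Elovl5 rose 1.19-fold in the posterior palate, from 75.1, 83.3 and 74.3 CPM to 87.2, 99.6 and 89.8 CPM (log2 0.25, SE 0.08, adjusted p = 0.024). The call was lost without con_PP replicate 1 (adjusted p = 0.092), con_PP replicate 3 (adjusted p = 0.10) or TAM_PP replicate 2 (adjusted p = 0.11), and with the trend removed (log2 0.18, adjusted p = 0.12). Elovl6 had 100.4, 106 and 106 CPM in controls and 137, 127 and 115 CPM under tamoxifen, a log2 difference of 0.28 (SE 0.11, adjusted p = 0.059), which was -0.05 with the trend removed (adjusted p = 0.67). Elovl6 lay near the threshold as counted and was called higher under 6 of 23 alternatives, among them the fit of the 6 posterior libraries alone (0.26, adjusted p = 0.013). Fads1 had 172, 182 and 181 against 196, 189 and 192 CPM (log2 0.11, adjusted p = 0.24). Fads2 had 99.1, 107 and 104 against 108, 112 and 112 CPM (log2 0.10, adjusted p = 0.32), and was called with the trend removed (log2 0.20, adjusted p = 0.020). The small posterior differences of both Fads genes thus separated the groups without passing the test as counted.

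**Figure D3:**
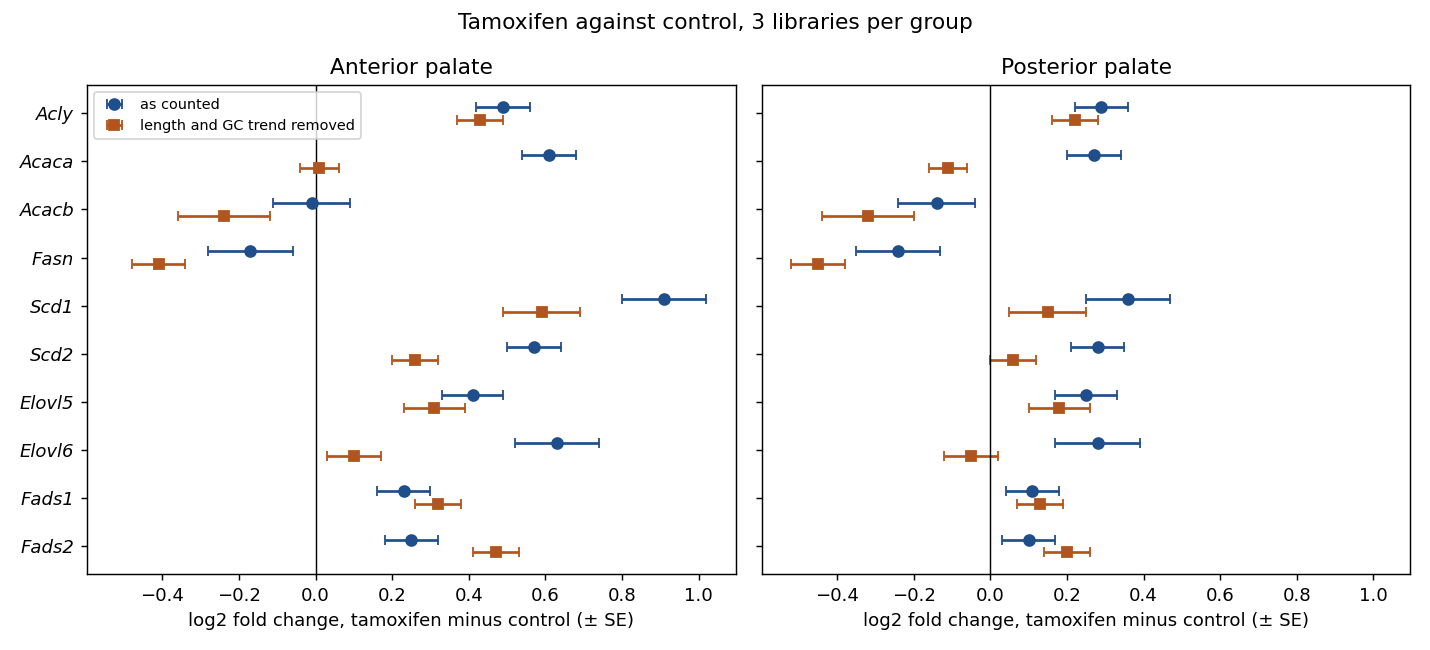
Log2 fold change of each gene under tamoxifen (tamoxifen minus control, error bars SE of the fit, 3 libraries per group) in anterior and posterior palate, as counted (circles) and with the length and GC trend removed (squares). Acaca moves from 0.61 to 0.01 in the anterior palate, Fasn from -0.17 to -0.41, and Fads2 from 0.25 to 0.47.

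Whether the effect of tamoxifen differed between the parts of the palate was tested as an interaction. All 10 differences (anterior minus posterior effect) were positive, with a median of 0.18 against -0.01 over all genes. None of the 10 and none of the 15958 genes was called by edgeR, where 4 of the 10 and 2110 of all genes had an unadjusted p under 0.05 (0% of all genes called). limma-voom also called 0 genes. DESeq2 called 160 genes, among them Scd1 (log2 0.56, adjusted p = 0.049) and Scd2 (log2 0.30, adjusted p = 0.034). In edgeR the difference was 0.55 for Scd1 (95% interval from the SE and 8 degrees of freedom 0.21 to 0.90, adjusted p = 0.22), 0.34 for Acaca (0.11 to 0.56, adjusted p = 0.22), 0.29 for Scd2 (0.07 to 0.51, adjusted p = 0.27) and 0.35 for Elovl6 (0.00 to 0.69, adjusted p = 0.36). The larger number of genes called in the anterior palate is therefore not by itself a difference between the parts.

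Between the parts of the palate in controls, 0 of the 10 genes were called by edgeR, against 23.3% of all genes. An unadjusted p under 0.05 was reached by 2 of the 10 and by 5623 of all 15958 genes. DESeq2 and limma-voom likewise called 0 of the 10. The nearest to the threshold were Elovl5, with a log2 difference (anterior minus posterior) of -0.19 (SE 0.08, adjusted p = 0.082), and Acaca at -0.17 (SE 0.07, adjusted p = 0.094). Acaca was called lower in the anterior palate without con_AP replicate 1 (-0.25, adjusted p = 0.030). Both genes were called without TAM_AP replicate 2 or TAM_PP replicate 1. Those libraries lie outside the groups compared and enter through the filter, the scaling, the estimate of spread and the p adjustment, which all libraries share. The 10 genes had a median of -0.09 against 0.02 over all genes tested.

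Under tamoxifen Scd1 was the 1 gene of the 10 called between the parts, against 7.6% of all genes called higher in the anterior palate. It was 1.30-fold higher there (log2 0.38, SE 0.10, adjusted p = 0.017), and the call was lost without TAM_AP replicate 1 (0.28, adjusted p = 0.11), TAM_PP replicate 2 (0.35, adjusted p = 0.078) or TAM_PP replicate 3 (0.32, adjusted p = 0.094). Scd2 lay just outside the threshold (log2 0.20, SE 0.07, adjusted p = 0.051). For 5 of the 10 genes the groups did not overlap, all with the anterior palate higher, against 33.1% of all genes in either direction and 16.3% with the anterior palate higher: Acly, Acaca, Acacb, Scd1 and Scd2. With the trend removed 8 of the 10 were called higher in the anterior palate, all but Elovl5 and Fads1, with log2 differences from 0.18 (Acly) to 0.39 (Scd1), against 13.8% of all genes.

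The balance among the genes shifted as well. The ratios below were chosen after the values were seen and carry no test. Per kilobase, Acly stood at 1.1 times the level of Fasn in control anterior palate (1.05 to 1.15 over the 3 libraries) and at 1.75 times under tamoxifen (1.63 to 1.92). In the posterior palate the ratio was 1.16 (1.09 to 1.20) in controls and 1.71 (1.54 to 2.02) under tamoxifen. No tamoxifen library overlapped a control in this ratio, and with the trend removed the group means were 1 and 1.80 in the anterior and 1.14 and 1.84 in the posterior palate. The ratio of Acaca to Fasn went from 0.177 to 0.305 in the anterior palate and from 0.195 to 0.282 in the posterior palate, again without overlap. Both shifts were smaller with the trend removed, from 0.198 to 0.266 and from 0.210 to 0.266. The ratio of Scd1 to Scd2 was 0.0536 (0.0512 to 0.0565) in control and 0.0682 (0.0617 to 0.0767) in tamoxifen anterior palate, and 0.0565 (0.0517 to 0.0602) and 0.0602 (0.0542 to 0.0683) in the posterior palate, where the groups overlapped. Fads1 to Fads2 had group means between 1.53 and 1.58 in all 4 groups as counted, with 1.36 to 1.79 over single libraries. Its means with the trend removed went from 1.62 to 1.46 in the anterior palate and from 1.61 to 1.53 in the posterior palate.

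**Figure D4:**
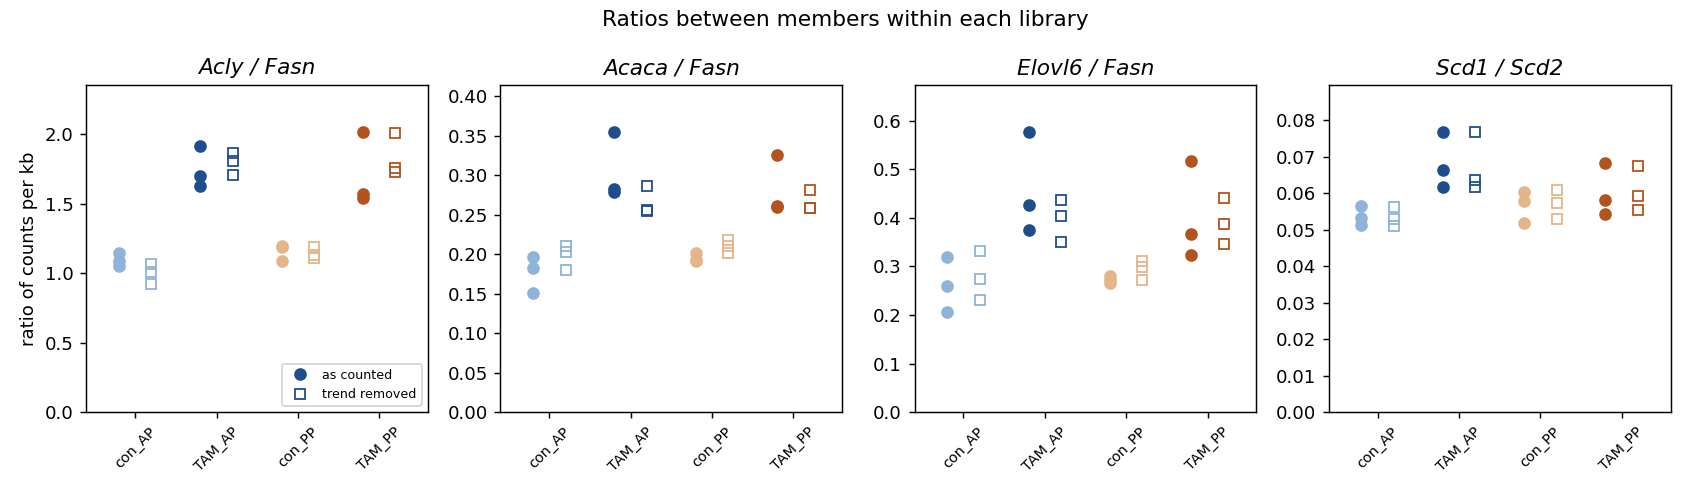
Ratio of levels per kilobase between pairs of genes within each library, by group, as counted (filled) and with the length and GC trend removed (open), vertical axes from 0. The Acly to Fasn ratio lies between 1.05 and 1.20 in the control libraries and between 1.54 and 2.02 in the tamoxifen libraries.

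Over the 12 libraries, the log2 CPM of the 8 genes other than Fasn and Acacb had Pearson's r of 0.58 to 0.98 between any pair, the highest between Acly and Scd2. Fasn had r of -0.73 to -0.15 with these 8, and Acacb had r of -0.50 to -0.01 with them and 0.10 with Fasn. These correlations describe 12 libraries that fall into 4 groups and share the length trend, and the 8 are those that were higher under tamoxifen. Taken as deviations from the group means, the 8 had r of -0.64 (Elovl6 and Fads2) to 0.83 (Acly and Fads2) with each other, and Fasn had r of -0.71 (Elovl6) to 0.68 (Fads2) with them. Among 11497 other genes with a mean of at least 5 CPM, the gene most like Scd2 was Pdha1, a subunit of pyruvate dehydrogenase (r = 0.98). The closest to Acly was Itga1 (0.97), to Acaca Camsap2 (0.99), to Elovl6 Aspm (0.99), to Elovl5 Trappc10 (0.98), to Fads1 Ppip5k2 (0.98), to Fads2 Psat1 (0.93), to Fasn Cabin1 (0.93) and to Acacb Vrk1 (0.94).

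Other genes of lipid metabolism were read from lists in the same fit. Of 21 tested genes of cholesterol synthesis and uptake, which share the SREBP regulators, 12 were called higher and 3 lower in the anterior palate, against 25.6% and 24% of all genes, with a median log2 fold change of 0.48. Once the trend was removed, 15 were called higher and 0 lower, against 16% and 16.5% of all genes. Stard4, a sterol carrier, rose 2.39-fold (adjusted p = 1.3e-06) and was called with the trend removed (log2 0.82). Of the 21 genes in the posterior palate 7 were called higher and 2 lower as counted (17.3% and 11.7% of all genes), with Stard4 at 1.41-fold and Sc5d, a late enzyme of the pathway, at 1.37-fold. Both lost their call with the trend removed (adjusted p = 0.056 and 0.10). There 2 other genes, Idi1 and Nsdhl, were called higher and 0 lower, against 7.74% and 10.2% of all genes. Between the parts under tamoxifen 8 were called higher in the anterior palate and 1 lower, against 1213 (7.6%) and 1633 of 15958 genes. Hsd17b7, an enzyme of the later steps, was 1.38-fold higher (called with the trend removed as well). Hmgcs1 was listed at 0 in all 12 libraries.

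Of 14 tested genes listed as regulators of lipogenesis, 5 were called higher and 4 lower in the anterior palate. The shares of all genes were 25.6% and 24%, and the median of the list was -0.07. Among the 4 was Mid1 (log2 -1.88, adjusted p = 0.042), which is not an established regulator of lipogenesis. With the trend removed 4 were called higher and 1 lower, against 16% and 16.5% of all genes. Mbtps2, a protease that releases SREBP, rose 1.71-fold there (adjusted p = 3.8e-05) and 1.40-fold in the posterior palate (adjusted p = 0.0045). Its log2 fold change with the trend removed was 0.33 in the anterior palate (adjusted p = 0.0029), and its posterior call was lost (0.22, adjusted p = 0.055). Prkaa2, a catalytic subunit of AMP-activated kinase, rose 2.52-fold in the anterior palate (adjusted p = 5.5e-05, log2 1.33, or 0.60 with the trend removed, adjusted p = 0.024). Chosen after their values were seen, the SREBP genes themselves and Insig1 were also read. Srebf1 had a mean of 162 CPM in control and 140.4 CPM in tamoxifen anterior palate (log2 -0.21, adjusted p = 0.16), Srebf2 had 349 and 407 CPM (log2 0.22, adjusted p = 0.018), and Insig1 had 61.0 and 87.6 CPM (log2 0.52, adjusted p = 0.00032). The log2 fold changes with the trend removed were 0.02 for Srebf1 (adjusted p = 0.87), 0.33 for Srebf2 (adjusted p = 0.00019) and again 0.52 for Insig1. None of these 3 was called in the posterior palate.

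The lists for the rest of lipid metabolism held calls in both directions, at shares to be read against the 25.6% of all genes called higher and 24% called lower. Among 14 tested genes listed under supply of acetyl-CoA, malonyl-CoA and NADPH, 4 were called higher and 5 lower in the anterior palate. This list also holds Mcat, Mecr and Oxsm of mitochondrial fatty acid synthesis, Mlycd, which breaks down malonyl-CoA, and Cs, which uses acetyl-CoA. Mcat, Mecr and Mlycd were among the 5, so the count does not measure supply alone. Pdha1 rose 1.52-fold (adjusted p = 6.7e-06), and Mecr, the last reductase of mitochondrial fatty acid synthesis, fell with a log2 fold change of -0.71 (adjusted p = 8.2e-05). Of 18 other tested elongation and desaturation genes 4 were called higher and 6 lower, with Hacd4, a dehydratase of chain elongation, up 2.05-fold and Degs2, a sphingolipid desaturase and hydroxylase, at a log2 fold change of -0.85 (adjusted p = 0.00067), which was not called with the trend removed (-0.46, adjusted p = 0.070). Among 20 genes of acyl-CoA and glycerolipid synthesis 6 were called higher and 7 lower: Gpam, the first acyltransferase of glycerolipid synthesis, rose 2.06-fold, and Dgat1, the last step of triglyceride synthesis, fell by 0.72 on the log2 scale. Of 18 tested genes listed under fatty acid oxidation 4 were called higher and 5 lower. Cpt1c, a form with little known activity in oxidation, had a log2 fold change of -0.68 (adjusted p = 6.5e-06). Acads, a short-chain dehydrogenase, stood at -0.57 as counted (adjusted p = 3.9e-05) and -0.02 with the trend removed (adjusted p = 0.86). Cpt1a, of the same list, was not called (log2 -0.11, adjusted p = 0.43). After removal of the trend the calls of Pdha1 (log2 0.51), Mecr (-0.22), Hacd4 (0.62), Gpam (0.64), Dgat1 (-0.29) and Cpt1c (-0.40) held. The medians of these 4 lists lay between -0.12 and 0.11, against 0.45 for the 10 genes.

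**Figure D5:**
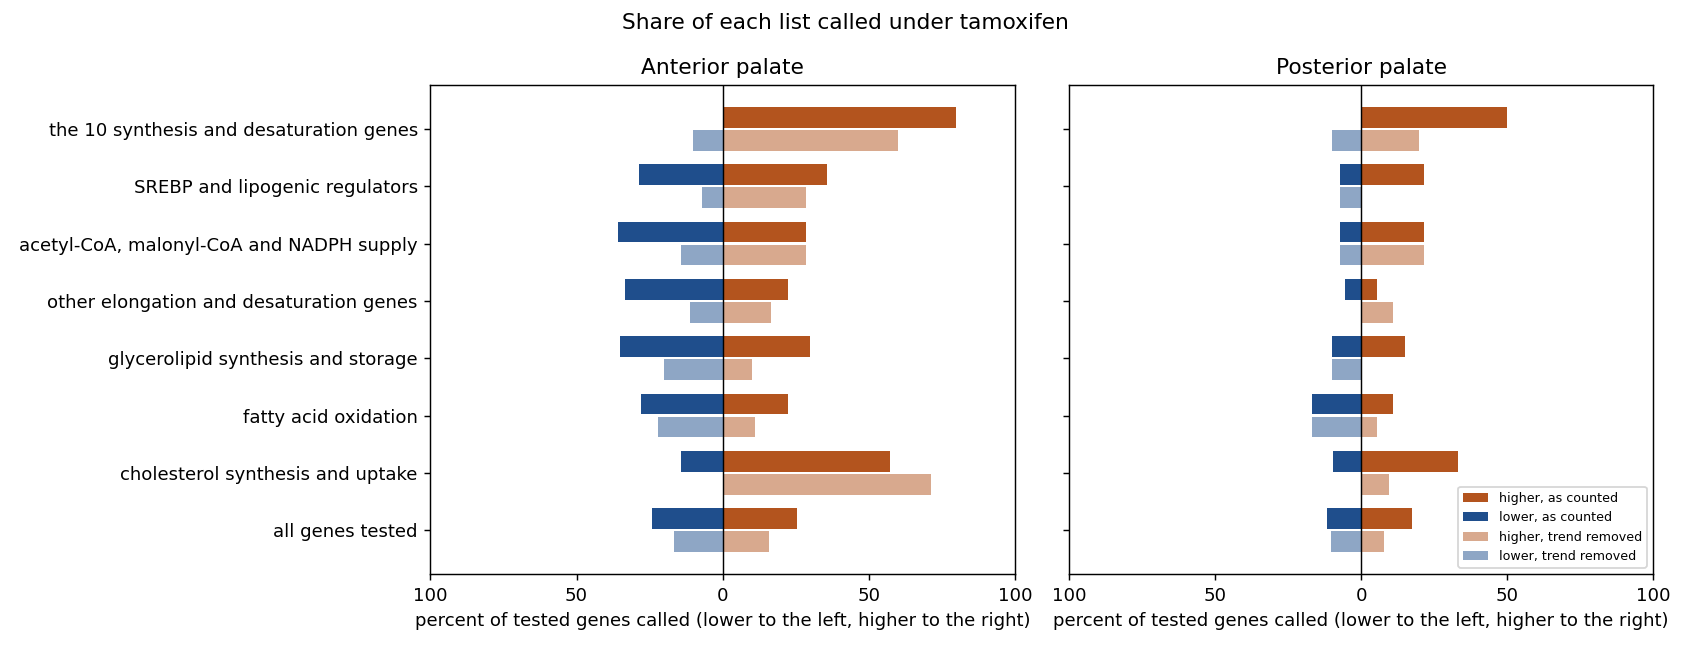
Percent of tested genes in each list called higher (to the right) or lower (to the left) under tamoxifen, as counted (dark bars) and with the length and GC trend removed (pale bars), for anterior and posterior palate. The 10 synthesis and desaturation genes and the cholesterol list have most of their calls on the higher side in the anterior palate, where 25.6% of all genes were called higher as counted.

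The same lists in the posterior palate were read against 17.3% of all genes called higher and 11.7% lower. In the supply list 3 genes were called higher and 1 lower, with Pdha1 at 1.23-fold and Mecr at a log2 fold change of -0.46. Of the other elongation and desaturation genes 1 was called higher (Hacd4, 1.38-fold) and 1 lower (Degs2, log2 -0.61). Among the glycerolipid genes 3 were called higher, with Acsl4, an acyl-CoA synthetase that favours arachidonate, at 1.5-fold, and 2 lower, with Dgat1 at log2 -0.48. Of the oxidation genes 2 were called higher and 3 lower, with Cpt1c at log2 -0.38 and Acadvl at -0.24, and of the regulators 3 higher and 1 lower, Nr1h2 (liver X receptor beta) at -0.29. Once the trend was removed Pdha1 (0.23) and Cpt1c (-0.26) kept their calls, and the other genes named here, Mecr (-0.19), Hacd4 (0.21), Degs2 (-0.40), Acsl4 (0.28), Dgat1 (-0.25), Acadvl (-0.09) and Nr1h2 (0.00), lost theirs.

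Between the parts of the palate, where 0 of the 10 genes were called in controls, neighbouring lists did hold calls. In controls 23.3% of all genes were called in either direction. There 3 of 14 listed regulators were called higher in the anterior palate and 0 lower, and 3 and 1 of 14 in the supply list. The counts were 2 and 1 of 18 other elongation and desaturation genes and 2 and 2 of 20 glycerolipid genes. They were 5 and 0 of 18 oxidation genes and 0 and 2 of 21 cholesterol genes. Me1, malic enzyme and a source of NADPH, was 1.73-fold higher in control anterior palate (adjusted p = 8.1e-05) and 1.57-fold higher under tamoxifen (adjusted p = 0.00054). Insig2 was 1.43-fold and 1.34-fold higher, Plin2, a lipid droplet coat protein, 1.33-fold and 1.23-fold higher, and Cpt1a, the entry enzyme of mitochondrial oxidation, 1.41-fold and 1.29-fold higher. Cyb5a, the electron donor of the desaturases, was 1.26-fold higher in both. The sterol carrier Stard4 was lower in control anterior palate (log2 -0.63, adjusted p = 0.00054), as was Gpam (log2 -0.52, adjusted p = 0.012). Acss1, of the supply list, was lower in the anterior palate under tamoxifen (log2 -0.85, adjusted p = 9.4e-05). The calls of the genes named here held with the trend removed.

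The samples are bulk tissue, in which fewer cells of a type and less RNA per cell cannot be told apart. Marker calls under tamoxifen are to be read against 25.6% of all genes called higher and 24% lower in the anterior palate. In the posterior palate these shares were 17.3% and 11.7%. All 9 markers of palatal mesenchyme were expressed, with summed levels of 8421 to 16834 CPM. Of these 3 were called higher and 2 lower in the anterior palate, and 2 and 1 in the posterior palate. Adipocytes are rich in several of these enzymes. Of 8 adipocyte markers Lep was at 0 in all 12 libraries, Adipoq reached at most 0.0967 CPM, Cidec 0.0248 CPM and Plin1 0.187 CPM. Their sum, carried by Cebpa and Lipe, was 37.3 to 56.1 CPM in control and 27.6 to 36.1 CPM in tamoxifen anterior palate. Only 4 of the 8 passed the expression filter, with 1 called higher and 2 lower there. Fabp4, of the same list, had 0.743, 0.508 and 0.703 CPM in control and 1.43, 1.52 and 0.843 CPM in tamoxifen anterior palate. Markers of Schwann cells, which make much lipid, summed to 83.8 to 94.4 CPM in control and 94.5 to 105 CPM in tamoxifen anterior palate (3 called higher and 2 lower of 8). In the posterior palate they summed to 83.4 to 90.0 and 122 to 135 CPM (4 higher, 0 lower). The 9 epithelial markers summed to 881 to 1112 and 867 to 1078 CPM in the anterior palate (3 higher, 1 lower) and 491 to 539 and 531 to 699.9 CPM in the posterior palate (4 higher, 0 lower). Of the 8 neuronal markers 3 were called higher and 0 lower in the anterior palate, summing to 63.8 to 86.3 and 68.4 to 101 CPM, and 2 and 0 in the posterior palate (100.1 to 108 and 112 to 163 CPM). Markers of skeletal muscle separated the parts, with 5.75 to 21.7 CPM in the anterior and 516 to 851 CPM in the posterior libraries, and all 8 were called lower in the anterior palate of both controls and the tamoxifen group. The 8 macrophage markers summed to 62.7 to 88.7 CPM over the 12 libraries (2 higher and 1 lower in the anterior palate, 1 and 0 in the posterior palate). The red blood cell markers summed to 493 to 958 CPM, where Hba-a2, Hbb-bs and Hbb-bt were listed at 0. Of 4 tested, 0 were called higher and 1 lower in the anterior palate and 0 in either direction in the posterior palate. The part of adipocytes, Schwann, epithelial, neuronal and muscle cells in the differences of the 10 genes was not tested.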

How the data were processed

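The authors deposited raw counts, 1 whole-number count per gene symbol and library. The tools named, per the submitters' processing notes, are HISAT2 and StringTie, and the build is mm9. Tool versions, strand setting, annotation and the program that counted reads are not given in the sources used, so reads of overlapping antisense genes may not be separated. Even values made up 57.1 to 60.1% of counts from 1 to 100, as when both mates of a pair are counted, and halving the counts was an alternative. Groups came from the sample titles. Replicates of each group differed beyond counting noise (chi-square per degree of freedom at least 9.89), so none was treated as a duplicate.

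In R 4.3.3, edgeR 4.0.16 was run with filterByExpr, TMM scaling and a robust quasi-likelihood fit to all 12 libraries with a mean for each group, which leaves 8 residual degrees of freedom. Benjamini-Hochberg adjusted p under 0.05 over 15958 genes was a call. Levels are CPM scaled by TMM. Log2 values for correlations used a prior count of 2. A comparison of 3 against 3 values cannot reach an exact p below 0.1, so levels carry no test of their own. Transcript length and GC content are those of each symbol's longest transcript in GENCODE's annotation of GRCm38. Of all symbols 23348 matched as written and 679 through a former symbol, and 15852 tested genes had both values. The trend of each library was a natural spline surface (4 degrees of freedom each) over genes with mean log2 CPM above 1, removed as an offset. Alternatives were DESeq2 1.42.0, limma 3.58.1 (voom), RLE and upper-quartile scaling, no filter or at least 1 CPM in 3 libraries, the libraries compared alone, the replicate number as a block, leaving out each library, and other lengths. The longest coding sequence as length was chosen after seeing the data.

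The 10 genes, the pathway lists and the marker lists were chosen with earlier results of these data known. In every comparison all 10 were given, and for each other pathway list up to 2 called genes with the smallest adjusted p and a group mean of at least 5 CPM could be named. Some genes that met these rules are not reported here. The gene most like each of the 10 was the one with the highest r over the 12 libraries. The fit was tested on simulated data for the anterior comparison: over 15776 genes 82% of 1.5-fold and 97% of 2-fold changes were called, with 9 unchanged genes. With a simulated length trend (15734 genes) 5419 unchanged genes were called, and 30 once the trend was removed. That trend was linear in log2 length, equal in all tamoxifen libraries and without a GC part. It was built from the same lengths that the removal uses, so its removal does not show how well the trend of the real libraries was removed.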

Additional observations from a re-analysis of the deposited data

How the results depend on the processing

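In the anterior palate 7 to 8 of the 10 genes were called under every alternative, 7 to 8 when 1 library was left out. These counts take both directions together. With the trend removed the 7 called were 6 higher and 1 lower: Acaca and Elovl6 lost their calls and Fasn was called lower. In the posterior palate 5 were called, and 3 to 6 when 1 library was left out (3 without con_PP replicate 1). The count was 3 with the length and GC trend removed, with or without the replicate block (2 higher and 1 lower without it). It was 6 with no filter and 7 in the fit of the 6 libraries alone. For the interaction 0 were called, 0 in each fit without 1 library and 2 by DESeq2. In controls 0 were called between the parts, 0 to 2 when 1 library was left out. Under tamoxifen 1 was called between the parts, 0 to 3 when 1 library was left out (3 without con_AP replicate 3), 2 by DESeq2, limma-voom, RLE scaling, upper-quartile scaling and counts divided by 2, and 8 with the trend removed, with or without the block. Over all genes the anterior count of 7924 was 5193 with the trend removed, and the posterior count of 4625 was 2855. Between the parts 3717 genes were called in controls (2483 to 4342 when 1 library was left out) and 2846 under tamoxifen (2090 to 3089). When 1 library was left out the anterior and posterior counts were 6553 to 7961 and 2714 to 5485. Under the other alternatives they were 5036 to 8250 and 2699 to 5644. The posterior count was also 2714 without con_PP replicate 1, 2830 without con_PP replicate 3 and 3045 without TAM_PP replicate 1.

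Some fold changes changed sign. With the trend removed the posterior effect of Acaca, called at 0.27 as counted, was -0.11, that of Elovl6 went from 0.28 to -0.05, and the control difference between the parts was 0.08 for Acaca, 0.17 for Fasn, 0.05 for Scd2 and 0.08 for Elovl6. The block with the trend removed gave 0.04 for Scd2 and 0.07 for Elovl6 and the same values otherwise. Upper-quartile scaling gave 0.01 for Fasn and Fads2 in that comparison. With 1 library left out in turn, further values crossed 0: Acacb in the anterior palate (-0.07 to 0.04), Elovl6 (-0.25 to 0.02) and Fads2 (-0.07 to 0.01) between the parts in controls, Elovl5 (-0.08 to 0.03) and Fasn (-0.07 to 0.15) between the parts under tamoxifen, and Fasn in the interaction (-0.03 to 0.20). The cause of these changes was not tested beyond what each alternative changes by construction.

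The replicate numbers of the titles gave no clear pairing of the samples. Deviations of same-numbered libraries had correlations of -0.06 to 0.08 in the anterior treatment comparison and -0.04 to -0.02 in the posterior one. Between the parts they were -0.04 to 0.08 in controls and -0.01 to 0.15 under tamoxifen. In these comparisons 0 to 2 of 3 libraries were most like their own number, 2 under tamoxifen. With so few libraries this cannot tell whether same-numbered libraries share an animal or litter. With the replicate block 8, 6, 0, 0 and 1 of the 10 genes were called in the 5 comparisons in the order above. Over all genes the block gave 7800, 4561, 0, 3711 and 2811. The posterior gain among the 10 was Elovl6 (0.27, adjusted p = 0.039, edgeR).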
